A study of Mus musculus with 12 samples.

Results

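Met and 5 genes that lie beside it on mouse chromosome 6, Tes, Cav2, Cav1, Capza2 and St7, were followed through 4 treatments in 3 mammary tumour cell lines. They are 6 of the 55573 genes in the count table, and all 6 were among the 13836 genes with enough counts to be tested. The 5 neighbours were chosen because they were well read among the genes within 1 Mb of Met, so their levels are given as a description with no test. The least-read member was St7, with 1080 to 12590 counts per library. The next genes within 1 Mb that were not chosen were Gm4876, with at most 431 counts in any library, and Gm15473, with at most 361.

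Tumourspheres of A1005, A1129 and A1471 were profiled by RNA-sequencing, and each of these lines had its origin in its own spindloid (spindle-cell) tumour of genotype MMTV-Metmt;Trp53fl/+;Cre. Every group carried this genotype, and within each line the 4 libraries received for 24 h the vehicle DMSO, the Met inhibitor Crizotinib, the FGF receptor inhibitor PD173074, or both inhibitors together (the combination). Each inhibitor was used at 1 µM, and each treatment therefore had n = 3 libraries, 1 per line. The MMTV promoter directs the mutant Met transgene to mammary epithelium, and gene counts do not tell transcripts of the transgene from those of the endogenous Met gene. The study describes the endogenous Met locus as amplified in this model, and DNA copy number is not among the values used here.

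Met is the receptor tyrosine kinase for hepatocyte growth factor, and on activation it signals through adaptors such as Gab1 and Grb2 to the ERK and PI3-kinase pathways. It supports branching of the normal mammary epithelium, and its activity is associated with the basal form of breast cancer. Caveolins, the products of Cav1 and Cav2, build the coat of caveolae, flask-shaped pits of the plasma membrane that hold receptors and buffer membrane tension. The other neighbours act on the cytoskeleton or are less well understood. Capza2 encodes the alpha 2 subunit of the capping protein that blocks the barbed ends of actin filaments, Tes encodes testin, a LIM-domain protein of focal adhesions, and St7 is named as a suppressor of tumorigenicity.

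The 6 genes lie head to tail on the plus strand of chromosome 6 (mm10, GENCODE annotation) and all are protein coding. From the centromeric side they are Tes (ENSMUSG00000029552, from 17065149 to 17105828), Cav2 (ENSMUSG00000000058, from 17281185 to 17289115), Cav1 (ENSMUSG00000007655, from 17306335 to 17341452), Met (ENSMUSG00000009376, from 17463800 to 17573980), Capza2 (ENSMUSG00000015733, from 17636234 to 17666972) and St7 (ENSMUSG00000029534, from 17692933 to 17943025). Tes ends 358.0 kb before Met begins, Cav2 ends 175 kb and Cav1 122 kb before it, and Capza2 begins 62.3 kb and St7 119 kb after Met ends. Of the 43 annotated genes within 1 Mb of Met, 7 had no count in any library, 20 had counts but too few to be tested and 16 were tested. Antisense genes overlap some members, namely Gm4876 over Tes, Gm15581 over Cav1 and Cav2 (at most 11 counts in any library) and 4 genes within St7 (at most 7 counts). The use of strand in counting is not given in the sources used here, so reads of such pairs cannot be told apart.

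The stretches shown here are the AP-1 elements found near the starts of Met and Cav2, and, beside them, the region upstream of Cav1, the neighbour called most often below. They come from the RefSeq windows of build GRCm38.p6, each running from 250 bases before to 50 bases after a start, in which all 6 genes were found. Capitals mark the element TGANTCA, the binding element of AP-1 factors, at Met and Cav2, and the GC-box element GGGCGG (read on the other strand) at Cav1. Each sequence is written 5′ to 3′ on the plus strand.
Met, chr6:17463892-17463921: tgttgcccggcTGAGTCAcgggccgggcag
Cav2, chr6:17281082-17281111: aagccaggagaTGACTCAtcgagccggttc
Cav1, chr6:17306085-17306334: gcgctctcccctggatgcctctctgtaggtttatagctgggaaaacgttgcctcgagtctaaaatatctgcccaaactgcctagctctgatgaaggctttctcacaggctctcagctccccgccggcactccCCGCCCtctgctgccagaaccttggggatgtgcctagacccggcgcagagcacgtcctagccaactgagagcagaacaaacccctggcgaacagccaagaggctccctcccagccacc
The AP-1 element began 54 bases before the RefSeq start of Met and 92 bases before that of Cav2. At Met this place lies inside the annotated gene body, which begins at 17463800. It was absent from the windows of Tes, Cav1, Capza2 and St7, and it occurred, on either strand, in 7.81% of all 32851 windows. The ETS element CCGGAA, present in 14.9% of the windows, and the FoxO element GTAAACA, present in 3.65%, had no match in any of the 6 genes. The E-box CACGTG, present in 7.15%, had 1 match at Met and 1 at St7. The GC box GGGCGG, present in 35.7%, had 3 matches at Met, 2 each at Tes, Cav2 and Cav1, 1 at Capza2 and none at St7. The elements and the sequences to show were chosen after the values were seen, and a match of letters is a description only.

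The libraries held 13031492 to 17750476 counts each, and no library pair agreed within sampling noise. Normalised levels are given as CPM, counts scaled to a common library size after TMM, with factors of 0.973 to 1.043. The mesenchymal markers Vim, Fn1, Sparc, Twist1 and Zeb1 were read in all 12 libraries, and the sixth, Cdh2, had at most 6 counts. The epithelial markers were low, with a summed level of 7.32 to 52.3 CPM over 7 genes, Krt5 and Cldn7 at 0 counts and Cdh1 at no more than 9 counts. Endothelial markers (0.0719 to 0.627 CPM over 3 genes) and adipocyte markers (0 to 0.0716 CPM over 2 genes) were near 0. The leukocyte marker sum was 31.3 to 41.97 CPM in A1005 but 4.34 to 10.8 in A1129 and 4.48 to 8.22 in A1471, with Cd3e at no more than 2 counts.

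Met was among the 22 most abundant genes of every library. With DMSO it stood at 5091 CPM in A1005, 4978 in A1129 and 2613 in A1471, a mean of 4227 ± 1399 (SD, n = 3). The first 2 lines lay close together and A1471 lay lowest, as it did under each of the other treatments. Capza2 was the most abundant gene of all in the 4 A1005 libraries, where it held up to 1.62% of the counts. Its DMSO levels were 13162 CPM in A1005, 6805 in A1129 and 2300.0 in A1471, so the order of the lines was A1005, A1129, A1471 and the lines lay further apart than for Met.

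St7 lies next to Capza2 and had the same order of lines at a far lower level. With DMSO it stood at 571 CPM in A1005, 242 in A1129 and 144 in A1471. On the other side of Met the order was different. Tes stood at 311 CPM in A1005, 5423 in A1129 and 2460.4 in A1471 with DMSO, and Cav2 at 158, 1193 and 442 CPM in the same lines. Cav1, the main structural protein of caveolae in most cells, stood at 326, 913 and 544 CPM. All 3 genes were lowest in A1005 and highest in A1129. Over the 4 treatments Tes ranked 4 to 9 among all genes by CPM in A1129 and 11 to 25 in A1471, but 456 to 962 in A1005.

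**Figure D1:**
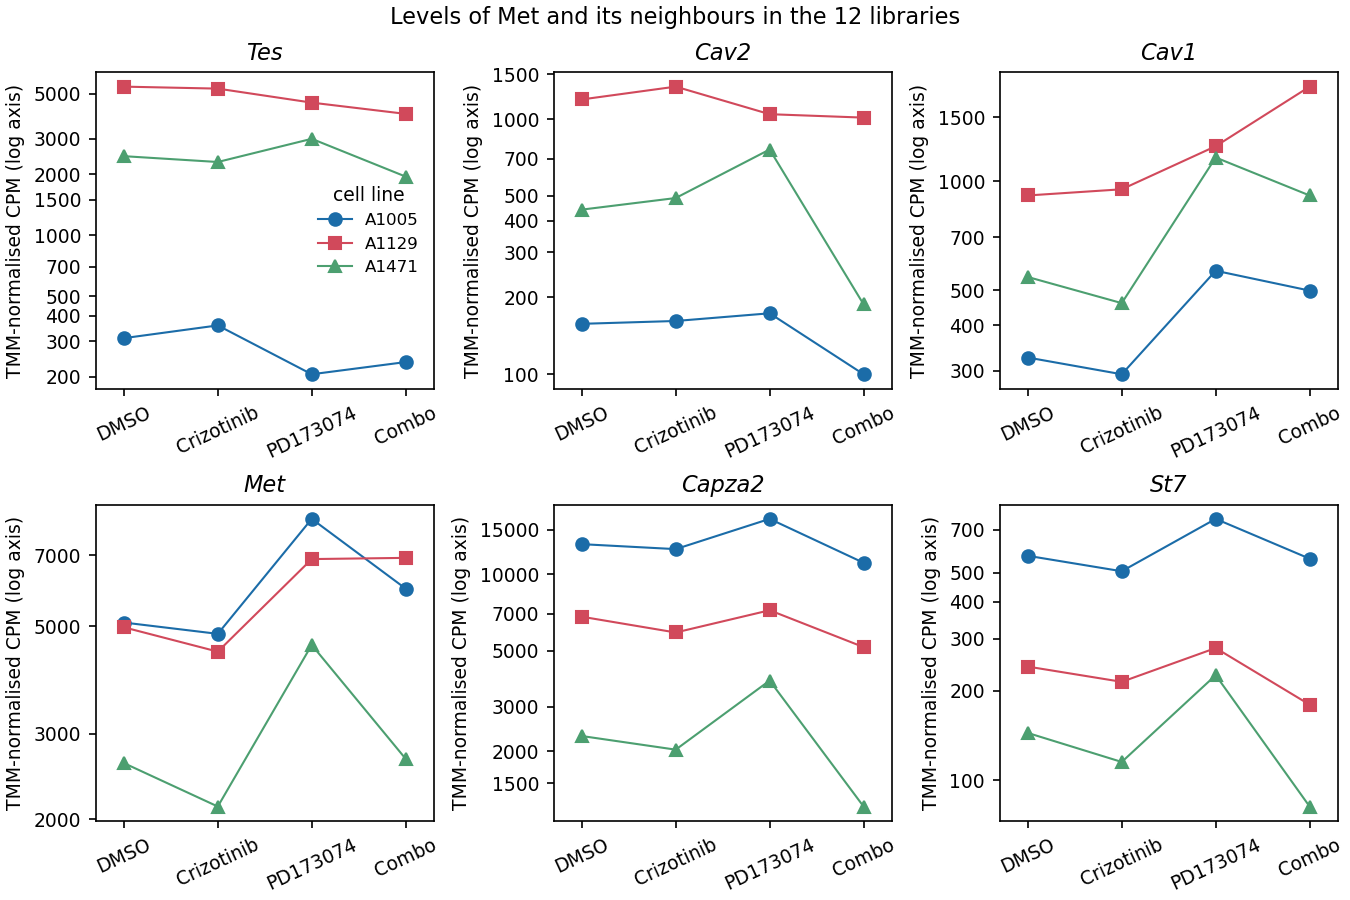
Level of each of the 6 genes (TMM-normalised CPM, log axis) in the 4 treatments. Each point is 1 library and a line joins the 4 libraries of a cell line. A1005 is highest for Capza2 and St7 and lowest for Tes, Cav2 and Cav1 under every treatment, and Met is lowest in A1471.

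Per kb of annotated exon, the mean DMSO levels of the 6 genes were 1260.2 ± 927 CPM per kb for Capza2, 550.5 ± 182 for Met, 399.6 ± 376 for Tes, 179 ± 160.4 for Cav2, 173 ± 86.1 for Cav1 and 35.3 ± 24.7 for St7 (SD, n = 3). Neighbours in this order lay within the SD of the more variable of the pair, except for Cav1 and St7, whose DMSO libraries did not overlap (94.7 to 265 against 15.96 to 63.2 CPM per kb). In A1129 the order of the first 3 was Capza2, Tes and Met, with 1155, 793 and 648 CPM per kb, and in A1471 it was Capza2, Tes and Met with 390.5, 360.0 and 340.2. A1005 departed from this, with Capza2 at 2235, Met at 663 and Tes at 45.5 CPM per kb. Exon length here is the union of all annotated exons, which need not equal the transcripts made in these cells.

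The members on each side of Met shared their order of lines. Between the highest and the lowest line with DMSO, Tes differed 17.4-fold, Cav2 7.57-fold and Cav1 2.80-fold, each with A1129 over A1005. Met differed 1.95-fold, Capza2 5.72-fold and St7 3.96-fold, each with A1005 over A1471. The median range over 9224 genes of average log2 CPM 3 or more was 1.52-fold. Of those genes 1.04% had a range at least as wide as that of Tes, 2.53% as that of Cav2, 3.38% as that of Capza2, 5.47% as that of St7, 9.83% as that of Cav1 and 23.6% as that of Met. There is no replicate of a line within a treatment, so these ranges carry no test, and the members were chosen on their levels.

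Averaged over treatments, A1005 deviated from the mean of the 3 lines by log2 −2.42 for Tes, −1.502 for Cav2 and −0.79 for Cav1, and by 0.37 for Met, 1.23 for Capza2 and 1.18 for St7. In this line the sign changed between Cav1 and Met. A1129 went down the same row of genes, from 1.71 at Tes, 1.47 at Cav2 and 0.76 at Cav1 to 0.31 at Met, 0.15 at Capza2 and −0.21 at St7. A1471 likewise fell from 0.72 at Tes, 0.03 at Cav2 and 0.03 at Cav1 to −0.68 at Met and −1.38 at Capza2, with St7 at −0.98. The other 40 tested genes within 10 Mb had median deviations of 0.26 in A1005, −0.13 in A1129 and −0.20 in A1471, with single genes between −2.03 and 3.23. Those within 1 Mb, all read at low levels, were less apart from the members. Before Met, Gm36503, Tfec, Gm15473 and Gm4876 stood at −1.41, −1.67, −2.03 and −1.96 in A1005. After Met, Gm27960, Gm43844 and Cttnbp2 stood at 1.18, 1.33 and 1.49 in that line, and Wnt2, Asz1 and Cftr at −0.04, 0.21 and 0.10. The leukocyte marker sum was higher in A1005 than in the other lines, and its part in the differences between lines was not tested. In bulk libraries, fewer cells of a type and less RNA per cell cannot be told apart.

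**Figure D2:**
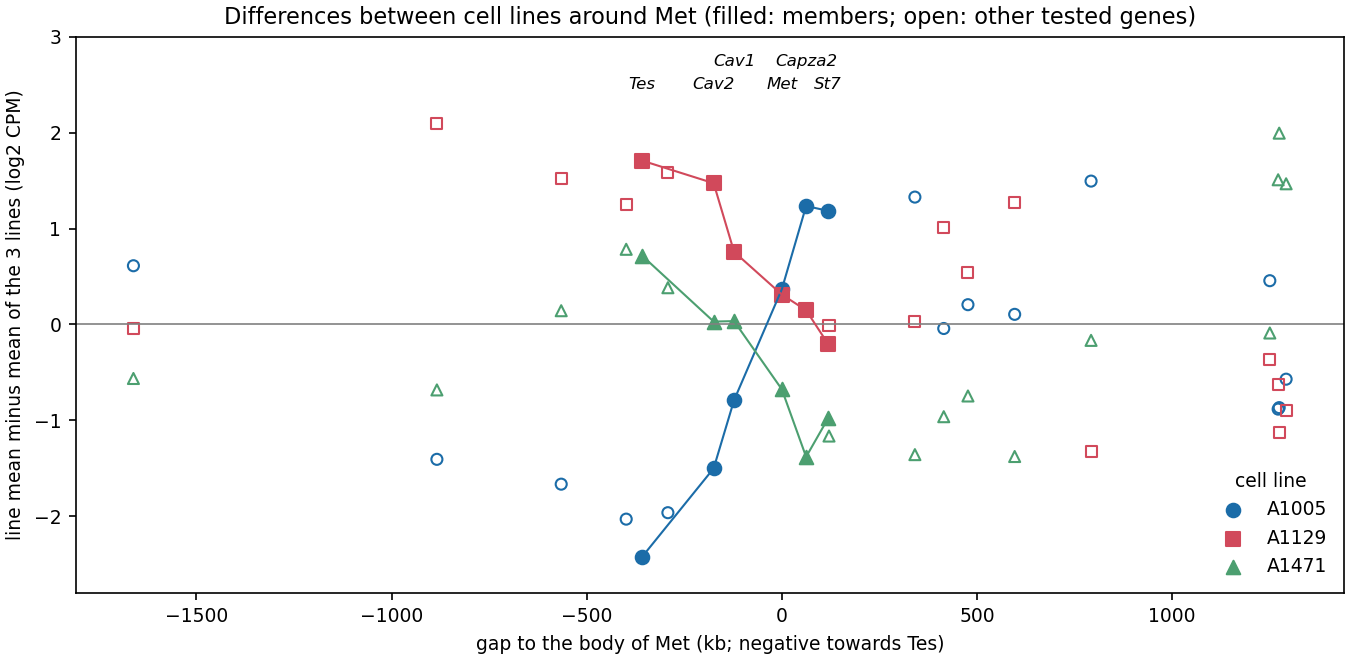
Deviation of each line from the mean of the 3 lines (log2 CPM, averaged over the 4 treatments) for tested genes, against their gap to Met in kb. Filled symbols joined by lines are the 6 named genes and open symbols other tested genes. The 6 named genes run from strongly negative (−2.42) to positive (1.23) in A1005, and from positive (0.72) to negative (−1.38) in A1471.

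The cell line held 98.1% of the variance of log2 CPM over the 12 libraries for Tes, 89.1% for Capza2, 87.1% for Cav2, 86.1% for St7, 66.8% for Met and 66.2% for Cav1, against a median of 52.1% over all tested genes. Treatment held 29.4% for Cav1 and 28.997% for Met, close to the median of 27.8% over all tested genes. It held 10.7% for St7, 8.11% for Capza2, 8.03% for Cav2 and 0.893% for Tes. Tes varied almost wholly by line.

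To determine how inhibition of Met kinase alone bore on these genes, Crizotinib was compared with DMSO. Met stood at 4825, 4434 and 2126 CPM in A1005, A1129 and A1471 with Crizotinib, slightly below DMSO in all 3 lines, and the groups overlapped. Its log2 fold changes were −0.08, −0.17 and −0.30 in these lines. The change was −0.16 ± 0.44 (SE) in the unpaired edgeR fit, with an adjusted p of 1. Capza2 (12581, 5895 and 2032 CPM) and St7 (507, 215 and 115 CPM) were also below DMSO in each line, and Cav2 (162, 1339 and 490.2 CPM) was above it in each line.

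With Crizotinib, 0 of the 6 genes were called by edgeR at an adjusted p of 0.05, against a background of 0% of all genes tested. This held with and without the cell line as a block, where 258 and 18 genes respectively had an unadjusted p under 0.05. DESeq2 called 1 gene, which was none of the 6. The log2 fold changes with the block lay between −0.22 for St7 and 0.12 for Cav2. Of the 6 genes, 4 moved in one direction in all 3 lines, which 35.6% of all genes tested did.

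The effect of FGF receptor inhibition alone was assessed by comparing PD173074 with DMSO. Met was at 8327 CPM in A1005, 6881 in A1129 and 4578 in A1471 with PD173074, a mean of 6595 ± 1891 against 4227 ± 1399 with DMSO (SD, n = 3). It was above its own DMSO library in every line, by log2 0.71, 0.47 and 0.81, although the group ranges overlapped because of the low level of A1471. The unpaired edgeR fit gave a log2 fold change of 0.64 ± 0.44 (SE) and an adjusted p of 1. With the cell line as a block, edgeR gave 0.67 ± 0.15 and an adjusted p of 0.0453. The call thus depended on the pairing, and it was lost when any one of A1005, A1129 and A1471 was left out, with blocked estimates of 0.66, 0.77 and 0.61. Here and below, fits without a line hold fewer libraries and have less power. A lost call alone therefore does not tie a change to that line.

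Cav1 was also higher with PD173074. It stood at 566, 1248 and 1162 CPM in A1005, A1129 and A1471 with PD173074, against 326, 913 and 544 with DMSO. Every line was higher, by log2 0.79, 0.45 and 1.09. The unpaired edgeR fit gave 0.74 ± 0.59 (SE) with an adjusted p of 1, and the blocked edgeR fit gave 0.80 ± 0.16 with an adjusted p of 0.0365. Of the fits with 1 line left out, the blocked one without A1129 called it (0.95) and those without A1005 or A1471 did not.

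Capza2 and St7 were higher with PD173074 in each line but did not pass the test in either fit. Capza2 was at 16562, 7216 and 3808 CPM, with a blocked edgeR log2 fold change of 0.40 and an adjusted p of 0.359. St7 was at 761, 279 and 226 CPM, with a blocked edgeR value of 0.43 and an adjusted p of 0.238. For both genes A1471 had the widest step from DMSO. Tes and Cav2 had no common direction. Tes was at 206 and 4522 CPM in A1005 and A1129, below DMSO, and at 2997 in A1471, above it, whereas Cav2 was at 173, 1044 and 759 CPM and lay below DMSO in A1129 only.

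In the unpaired edgeR fit 0 of 6 members were called with PD173074, against 0% of all genes tested, where 307 genes had an unadjusted p under 0.05 and DESeq2 called 0.172%. With the block 2 of 6, Met and Cav1, were higher, against 2.14% of all genes tested called in either direction and 1.62% called higher. Of the 6 genes 4 moved in one direction in all 3 lines, against 47.3% of genes tested.

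**Figure D3:**
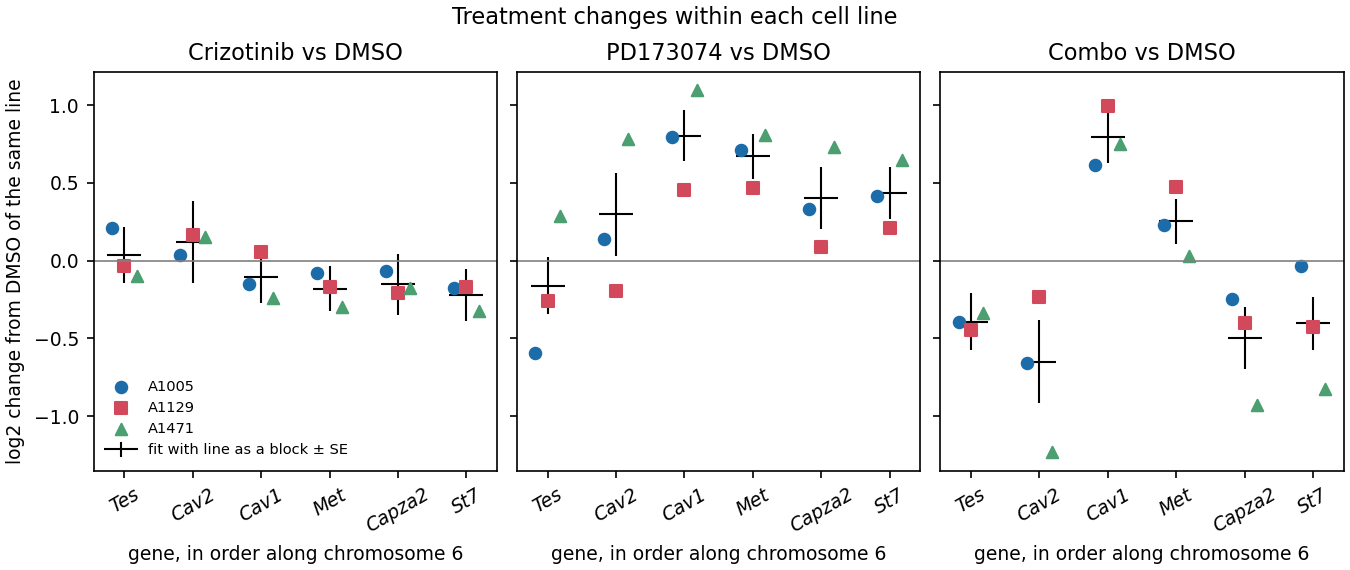
Log2 fold change of each gene in each line (points) for Crizotinib, PD173074 and the combination (Combo) against DMSO, with the blocked edgeR estimate (horizontal bar) and its standard error (vertical bar). Cav1, Met, Capza2 and St7 lie above 0 in all 3 lines with PD173074, whereas with the combination Cav1 and Met lie above 0 and the other 4 genes below it.

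Dual inhibition was compared with DMSO next. Met was at 5980 CPM in A1005, 6920 in A1129 and 2666 in A1471 with the combination, a mean of 5189 ± 2235 (SD, n = 3). Each line was above its DMSO library, by log2 0.23, 0.48 and 0.03, and the groups overlapped. Neither edgeR fit called the gene. The unpaired one gave 0.30 ± 0.44 (SE) and an adjusted p of 0.722, and the blocked one 0.25 ± 0.14 and an adjusted p of 0.160.

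Cav1 was the member that passed the test with the combination, in the fit with the block. It stood at 499 CPM in A1005, 1823 in A1129 and 913 in A1471, against 326, 913 and 544 with DMSO. Each line was higher, by log2 0.61, 0.997 and 0.75, and the group means were 1078 ± 677 and 595 ± 297 CPM (SD, n = 3). Fitted unpaired, the log2 fold change was 0.86 ± 0.59 (SE), with an edgeR adjusted p of 0.383, and the blocked edgeR fit gave 0.79 ± 0.16 with an adjusted p of 0.00236.

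Cav2, which assembles with Cav1 in the caveolar coat, went the other way. With the combination it was at 100.002 CPM in A1005, 1013 in A1129 and 188 in A1471, which is below DMSO in each line (log2 fold changes −0.66, −0.24 and −1.23). The blocked edgeR fit gave −0.65 ± 0.27 (SE) with an adjusted p of 0.0604, which missed the threshold. Without A1129 the blocked edgeR fit called it (−0.91, adjusted p = 0.0262). These neighbours thus had point estimates of opposite sign.

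Capza2 with the combination was at 11112, 5162 and 1212 CPM in A1005, A1129 and A1471, St7 at 559, 180 and 81.5 CPM, and Tes at 237, 3979 and 1951 CPM. All 3 genes were below DMSO in each line. Their blocked edgeR log2 fold changes were −0.50 for Capza2 (adjusted p = 0.0538), −0.40 for St7 (adjusted p = 0.0649) and −0.39 for Tes (adjusted p = 0.0920), and none passed. Without A1005 the blocked edgeR fit called St7 (−0.60, adjusted p = 0.0300). The difference of Capza2 was −0.92 in A1471 but −0.24 in A1005, and that of St7 was −0.82 in A1471 and −0.03 in A1005.

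In the unpaired edgeR fit 0 of 6 members were called with the combination, against 14.4% of all genes tested. With the block 1 of 6, Cav1, was called, against 54.8% of all genes tested, of which 28.6% of genes were higher and 26.2% lower. All 6 moved in one direction in all 3 lines, as did 65.8% of genes tested. No member had groups of libraries without overlap in any comparison, a separation seen in 1.69% of all genes tested for Crizotinib against DMSO, 6.42% for PD173074 and 29.9% for the combination, and in 29.7% and 21.6% for the combination against Crizotinib and against PD173074.

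The combination was then compared with each inhibitor alone. These comparisons share the combination libraries with each other and with the comparison to DMSO. Against Crizotinib, Met was higher in each line, by log2 0.31, 0.64 and 0.33. Its unpaired edgeR estimate was 0.45 ± 0.44 (SE) with an adjusted p of 0.567, and the blocked one was 0.43 ± 0.14 with an adjusted p of 0.0277. Cav1 was higher by 0.77, 0.94 and 0.99, with a blocked edgeR estimate of 0.90 ± 0.16 and an adjusted p of 0.00118. Cav2 was lower by −0.69, −0.40 and −1.38, with a blocked edgeR estimate of −0.77 ± 0.27 and an adjusted p of 0.0325. The call of Cav2 was lost without A1005 (−0.80, edgeR adjusted p = 0.117) and without A1471 (−0.51, edgeR adjusted p = 0.0735), and that of Met without A1005 (0.505) and without A1129 (0.33). The unpaired edgeR fit called 0 of 6 members, against 13.2% of all genes tested, and the blocked fit called these 3 of 6, against 53.4%.

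Against PD173074, Capza2, St7 and Cav2 were lower in each line with the combination, and they fell in the fit with the block. Capza2 differed by −0.58 in A1005, −0.48 in A1129 and −1.65 in A1471, with a blocked edgeR log2 fold change of −0.90 ± 0.20 (SE) and an adjusted p of 0.00608. St7 differed by −0.45, −0.63 and −1.47, with −0.84 ± 0.17 and an edgeR adjusted p of 0.00392. Cav2 differed by −0.79, −0.04 and −2.01, with −0.95 ± 0.27 and an edgeR adjusted p of 0.0195. The step was widest in A1471 for all 3 genes. Without that line, the blocked edgeR fit gave −0.53 for Capza2 and −0.54 for St7, both still called, and it did not call Cav2 (−0.42). The call of Cav2 was also lost without A1005 (−1.02, edgeR adjusted p = 0.0757).

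Met fell against PD173074 in the blocked edgeR fit, with −0.42 ± 0.15 (SE) and an adjusted p of 0.0429, but its lines had no common direction. It was lower by −0.48 in A1005 and −0.78 in A1471, and it was level in A1129 (0.01), where 6920 CPM with the combination stood against 6881 with PD173074. The call was lost without A1005 (−0.38) and without A1471 (−0.23). Cav1 gave −0.01 ± 0.16 with an adjusted p of 0.966, with A1129 higher (0.55) and the other lines lower (−0.18 in A1005 and −0.35 in A1471). Tes gave −0.23 ± 0.18 with an adjusted p of 0.336. The unpaired edgeR fit called 0 of 6 members, against 4.77% of all genes tested, and the blocked fit called 4 of 6, all lower, against 39.8% called in either direction and 20.2% called lower.

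Departure from additivity, the combined effect minus both single effects, was estimated for each gene on the log2 scale. With the block it was −1.07 ± 0.38 (SE) for Cav2 with an edgeR adjusted p of 0.0812, −0.75 ± 0.28 for Capza2 with 0.0934, and −0.62 ± 0.24 for St7 with 0.103. It was −0.24 ± 0.20 for Met with an edgeR adjusted p of 0.450, −0.27 ± 0.26 for Tes with 0.501 and 0.10 ± 0.23 for Cav1 with 0.805. None of the 6 was called in either edgeR fit, against 0.918% of all genes tested without the block and 16.2% with it. In A1471 the departure was −2.17 for Cav2, −1.47 for Capza2 and −1.15 for St7, the largest of the 3 lines for each.

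Ratios within a library do not depend on its scaling, and they show which neighbours parted. The Met to Capza2 ratio of CPM was 0.387 with DMSO and 0.538 with the combination in A1005, 0.731 and 1.34 in A1129, and 1.14 and 2.20 in A1471. The combination values were 1.39-fold, 1.83-fold and 1.94-fold those with DMSO. With PD173074 it was 0.503, 0.954 and 1.202, and with Crizotinib 0.384, 0.752 and 1.05, nearer to DMSO.

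The Cav1 to Cav2 ratio moved further. It was 2.07 with DMSO and 4.99 with the combination in A1005, 0.766 and 1.80 in A1129, and 1.23 and 4.86 in A1471, or 2.41-fold, 2.35-fold and 3.94-fold higher. With PD173074 it was 3.27, 1.195 and 1.53. The Capza2 to St7 ratio moved little by comparison. It was 23.0, 28.2 and 15.9 with DMSO in A1005, A1129 and A1471, and 19.9, 28.7 and 14.9 with the combination, or 0.863, 1.02 and 0.933 of DMSO. These ratios are descriptions and were not tested.

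**Figure D4:**
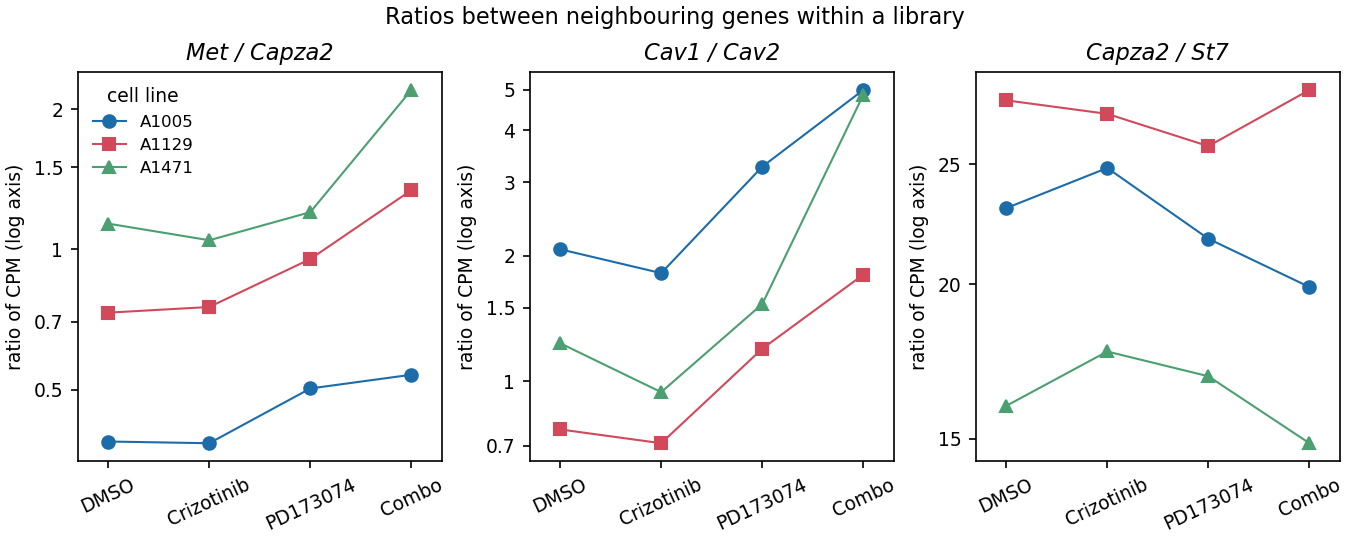
Ratio of CPM between neighbouring genes in each library (log axis), by treatment and line. Cav1 over Cav2 and Met over Capza2 are higher with the combination than with DMSO in all 3 lines, while Capza2 over St7 stays between 14.9 and 28.7.

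The genes most like Met were sought among 9223 genes of average log2 CPM 3 or more, by Pearson's r of log2 CPM over the 12 libraries. The highest were 4930453N24Rik (0.943), Nfkbiz (0.929), Lcmt2 (0.918), Vegfd (0.914) and Pros1 (0.906), 3 of them on chromosome 16. Of the neighbours, Capza2 stood at 0.820 (rank 102) and St7 at 0.743 (rank 285), while Cav1 was at 0.24, Cav2 at 0.00 and Tes at −0.29. Centring within lines removes the line means and leaves the response to treatment, its differences between lines and the noise of single libraries. After it the highest were Ext1 (0.889), Zfp597 (0.887), Arl15 (0.884), Rlf (0.883) and Arsb (0.880). Here Cav1 took rank 8 with 0.871, St7 had 0.630, Capza2 0.545, Cav2 0.243 and Tes −0.28. The 12 libraries share lines and treatments, so these values describe the libraries and carry no test.

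The other tested genes within 1 Mb of Met were read at low levels. With the combination and the block, Gm15473, a non-coding gene that ends shortly before Tes begins, fell by 1.29 on the log2 scale (edgeR adjusted p = 0.00169), and Gm4876, the antisense gene over Tes, rose by 0.79 (edgeR adjusted p = 0.0213). The other 8 tested genes within 1 Mb were not called, in a fit that called 54.8% of all genes tested. Cftr, the chloride channel gene, had at most 150 counts in any library. Wnt2, a secreted signalling protein, had at most 29, and Asz1, a germ-cell gene, at most 33.

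Genes that act with Met were examined as lists in the comparison of the combination with DMSO. The lists were chosen with earlier results of these data known, so their counts are descriptions. Each count is to be read against the 14.4% of all genes tested that were called without the block, and the 28.6% called higher and 26.2% called lower with it. Of the ligand, its proteases and their inhibitors, 6 of 10 were tested and none was called without the block. The ligand Hgf itself was low, with 1.51 ± 2.55 CPM under DMSO and 0.723 ± 1.25 under the combination (SD, n = 3). With the block 2 of the 6 rose and 2 fell, a called share near the 54.8% of all genes tested, and the median log2 fold change of the tested genes without the block was −0.23, against 0.02 for all genes tested. The 2 that fell were Plau, the urokinase protease (−1.82, edgeR adjusted p = 0.00116), and Spint1, an inhibitor of the activating proteases (−1.87, edgeR adjusted p = 0.0123).

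Among 9 partner receptors of Met, Cd44 alone was called without the block. This hyaluronan receptor, which presents ligand to Met, had 568 ± 140 CPM under DMSO and 121 ± 51.3 under the combination (SD, n = 3). Its log2 fold change was −2.23 and its edgeR adjusted p 0.00181. With the block 5 of the 9 rose, among them Plxnb1, Nrp1 and Nrp2, and 2 fell, Cd44 and the laminin receptor subunit Itga6, where 54.8% of all genes tested were called in either direction.

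Among 14 adaptors and effectors 2 rose without the block and 5 with it, and none fell, shares near those of all genes tested that were called without the block (14.4%) and called higher with it (28.6%). Gab1, the scaffold that Met phosphorylates, went from 11.4 ± 3.36 to 40.2 ± 18.9 CPM (SD, n = 3), a change of 1.82 on the log2 scale (edgeR adjusted p = 0.0149). Pik3r1, the regulatory subunit of PI3-kinase, went from 74.0 ± 21.4 to 287 ± 66.4 CPM, a change of 1.95 (edgeR adjusted p = 0.00177). Of 12 genes of Met shedding and turnover, Sh3kbp1, which links Cbl to endocytosis, was the call without the block, at −1.21 (edgeR adjusted p = 0.00247). With the block 3 rose and 3 fell.

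The partners of the neighbours were examined in the same way. Of the other caveola coat genes 8 of 10 were tested, 2 fell without the block and none rose. These were the membrane-remodelling ATPases Ehd1 (−1.21, edgeR adjusted p = 0.00424) and Ehd4 (−0.97, edgeR adjusted p = 0.0450). With the block 2 rose and 4 fell, where 54.8% of all genes tested were called. Cavin2, another coat protein, had the largest change of the list, a rise of 2.98 (edgeR adjusted p = 0.0105), and Cavin1, the main cavin of the coat, was among those that fell (−0.43, edgeR adjusted p = 0.0499). The lines were very unequal for Cavin2, with 23.7 ± 39.8 CPM under DMSO and 58.1 ± 66.3 under the combination (SD, n = 3). Its unpaired edgeR estimate was 1.29 ± 2.37 (SE), with an adjusted p of 0.784. The median log2 fold change without the block was −0.33, against 0.02 for all genes tested, while Cav1 itself was at 0.86.

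Of the actin capping list 7 of 8 were tested and none was called without the block. Capza1, the paralog of Capza2, went from 98.4 ± 24.0 to 82.2 ± 9.001 CPM (SD, n = 3), and Capzb, the shared beta subunit, from 187 ± 43.6 to 270.5 ± 99.2. With the block 2 rose, one of them Capzb (0.50, edgeR adjusted p = 0.00130), and 2 fell. Of 6 partners of Tes, paxillin (Pxn) fell without the block (−0.47, edgeR adjusted p = 0.0313), and with the block 2 rose and 2 fell. St7l, the paralog of St7, was at 20.1 ± 0.864 and 24.8 ± 4.18 CPM and rose with the block only (0.29, edgeR adjusted p = 0.0495).

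All 5 of 5 listed ERK target genes fell with the combination in both fits. Of all genes tested, 8.28% were called lower without the block and 26.2% with it. Without the block the log2 fold changes of the 5 genes ran from −5.98 for Spry4 to −4.74 for Etv4. This list too was chosen with earlier results of these data known. With PD173074 no gene of any list was called without the block, where 0% of all genes tested were. With the block 4 of the 5 ERK target genes fell, where 1.62% of all genes tested were called higher and 0.52% lower. Of the other lists, Pik3r1 (1.15, edgeR adjusted p = 0.0222) and Enah (0.65, edgeR adjusted p = 0.00734) rose and Capg (−0.65, edgeR adjusted p = 0.0125) fell in that fit. With Crizotinib no gene of any list was called in either fit.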

How the data were processed

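RNA-sequencing of 12 tumoursphere libraries (3 cell lines, 4 treatments) was used, and treatment and line were taken from the sample labels. The values come from 1 deposited table of raw counts, which gives the reads on each Ensembl gene. The submitters' processing notes name bcl2fastq, STAR and HTSeq with build mm10, and the versions, the strand setting and the annotation release are not given in the sources used here. Totals were 13031492 to 17750476 counts per library. The ± values are SDs over the 3 lines or standard errors of the fits, as marked, and reads carry no molecular identifiers.

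The 6 genes, the lists, the rule for named genes and the tests were chosen with earlier results of these data known. Named genes are the 6 members, genes within 1 Mb of Met, the listed genes, and the 5 genes most like Met over libraries and after centring within lines. Coordinates and exon lengths came from GENCODE for mm10, which held 55480 of the 55573 genes. Low counts were removed by filterByExpr (at least 10 counts, 15 in total), TMM factors were applied, and edgeR 4.0.16 (R 4.3.3) fitted a quasi-likelihood model. P-values were adjusted over all 13836 genes by the Benjamini-Hochberg method, and 0.05 was the limit. The main fit was unpaired, as in the study's methods. CPM values are TMM-normalised, and log2 CPM used a prior count of 2.

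A second fit had the cell line as a block. Libraries of one line deviated together across treatments (mean r 0.871 over 18 pairs, lowest 0.766), and those of different lines did not (mean −0.422 over 36 pairs). The pairing comes from the line named in the labels. Because each treatment has 1 library per line, p-values of the unpaired fit set a change against the spread between the 3 lines. Those of the blocked fit set it against the scatter left once the line means are removed, that is, how unlike the 3 lines responded. Alternatives were DESeq2 1.42.0, limma-voom (limma 3.58.1), DESeq2 size factors, total counts, no filter, at least 10 counts in every library, the compared groups only, and leaving out each line. The tests were checked on simulated counts, in which, with differences between lines, the blocked fit made more true and more false calls than the unpaired one. A listed marker gene is not reported here. Python 3.11.15 (pandas 2.3.3, numpy 2.4.6, matplotlib 3.10.9) drew the plots.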

Additional observations from a re-analysis of the deposited data

Results flagged for a closer look

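In 8 cases a gene moved up in one line and down in another under the same comparison. Each line has 1 library per treatment, so these differences between lines were not tested, and mixed directions were common among all genes tested, at 64.4% for Crizotinib, 52.7% for PD173074, 35.2% for the combination against Crizotinib and 38.4% for the combination against PD173074.

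With Crizotinib, the log2 fold change of Tes was 0.21 in A1005 and −0.10 in A1471, and that of Cav1 was 0.057 in A1129 and −0.24 in A1471. With PD173074, Tes was at 0.28 in A1471 and −0.59 in A1005, and Cav2 at 0.78 in A1471 and −0.19 in A1129. For the combination against Crizotinib, St7 was at 0.14 in A1005 and −0.50 in A1471. For the combination against PD173074, Tes was at 0.20 in A1005 and −0.62 in A1471, Cav1 at 0.55 in A1129 and −0.35 in A1471, and Met at 0.0083 in A1129 and −0.78 in A1471.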

How the results depend on the processing

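Without the block, none of 354 values for the 6 genes under the alternatives passed an adjusted p of 0.05 (lowest 0.227). Over all alternatives 451 log2 fold changes kept their direction and side of the threshold, 30 became called and 17 changed sign. The 24 levels were compared with total-count CPM only, and all moved by less than 1 SD over the lines. With TMM factors of 0.973 to 1.043 and lines so far apart, that comparison could hardly have come out otherwise.

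With the cell line as a block, Met was called with PD173074 (0.67), for the combination against Crizotinib (0.43) and against PD173074 (−0.42). The number of members called became 2 with PD173074, 1 with the combination, 3 for the combination against Crizotinib and 4 against PD173074. The shares of all genes tested called in these comparisons were 2.14%, 54.8%, 53.4% and 39.8%. With the block and 1 line left out, the member counts ranged over 0 to 1, 1 to 2, 1 to 3 and 2 to 4. The share of all genes called in those smaller fits is not given, so these ranges are a description only. Met stayed called for the combination against Crizotinib only without A1471 (0.50) and against PD173074 only without A1129 (−0.63), and it was not called with PD173074 when any line was left out. Cav1 remained called with the combination without each line (0.69 to 0.89), and with PD173074 without A1129 only (0.95). With all lines, the block also made the calls given in the report for Cav1, Cav2, Capza2 and St7 and changed no other call of the 6 genes. With a line left out it further called Cav2 (−0.91, without A1129) and St7 (−0.60, without A1005) with the combination, and Tes for the combination against Crizotinib (−0.49, without A1471).

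Changes of sign were seen where the main unpaired estimate lay between −0.085 and 0.19 and was smaller than its SE. The widest, to −0.28, −0.27 and 0.21, came with A1129 left out. Tes with Crizotinib became 0.037 with the block, 0.027 with limma-voom, and 0.065 to 0.087 with the block and a line left out. St7 for the combination against Crizotinib became 0.020 with total counts, 0.0061 with at least 10 counts in every library and 0.045 to 0.046 without A1129 or A1471. Cav1 for the combination against PD173074 became −0.011 with the block, −0.28 without A1129 and −0.27 with both. Cav1 with Crizotinib became 0.00016 without A1471, and its departure from additivity −0.069, or −0.065 with the block, without A1129. Tes with PD173074 became 0.21 without A1129 and 0.028 with the block and without A1005, and Cav2 with PD173074 −0.13 without A1471. The cause was not tested. Precision is limited by the 3 lines per treatment; the depth was at least 1080 counts per member and library.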
